A study of Mus musculus with 4 samples.

Results

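TRIM proteins (tripartite motif proteins) were studied in macrophages as the 50 genes, of 17013 listed, whose symbol is Trim followed by a number and at most 1 letter. Most members carry a RING domain, through which they act as ubiquitin ligases, followed by B-box and coiled-coil domains and a C-terminal domain that sets what they bind. A few have lost the RING, and among the genes listed these were Trim14, Trim16, Trim29, Trim44 and Trim66. The family is best known in macrophages for tuning antiviral sensing and the signalling of interferons and Toll-like receptors. Several members are themselves induced by interferon, and many of those carry a C-terminal PRY-SPRY domain. The wider family also has members under other names, such as Pml, which the symbol rule does not take in.

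Bone marrow macrophages of wild-type mice were matured with M-CSF, seeded on porous inserts and overlaid with artificial necrotic bone fluid (aNBF) for 24 h. Below the cells lay medium from freeze-thawed mouse abdominal fat, taken from its middle layer for the fat control medium (Con) or from its top layer for the high-fat-containing medium (Fat). Con therefore received aNBF and fat tissue extract as well, and there was no culture without them. The marrow donors were male mice of the C57BL/6 strain, and their age is not given in the sources used here. Nothing says whether the 2 libraries of a medium came from separate animals or cultures, so p-values measure only the spread between these libraries, which may be technical. The number of fat preparations is not given in the sources used here, and the cells were sampled at 1 time.

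The libraries held between 33573852 and 40785872 reads on genes, recovered from the deposited CPM (counts scaled to the library's total), and 1 read was worth between 0.0244 and 0.0295 CPM. The 8 macrophage markers examined were all detected, Cd68 at 777.7 CPM or more in every library, and Mertk and Fcgr1 were called lower in Fat. Their sum, most of it Lyz2, was 34070 and 36130 CPM in Con against 27020 and 28640 CPM in Fat. Of 8 adipocyte markers, Cidec was called higher in Fat, and Adipoq and Lep had 0 reads in both Con libraries against 0.342 to 0.804 CPM in Fat. Lipe and Fabp4, which macrophages also express, made up nearly all of that list, whose sum lay between 209.5 and 228.6 CPM in Con and between 196.5 and 200.4 CPM in Fat. The sum of 5 neutrophil markers was 256.7 to 293.5 CPM in Con and 251.5 to 256.6 CPM in Fat, that of 4 B cell markers 16.5 to 17.3 and 13.9 to 15.5, and that of 4 T cell markers 12.63 to 14.98 and 9.88 to 10.1, with 0 genes called in these 3 lists by limma. The dendritic cell markers stayed at a sum of 0.88 CPM or less, and of the endothelial and fibroblast markers Dcn was called lower. The part of other cells in the TRIM results was not tested, and in bulk RNA fewer cells of a type and less RNA per cell cannot be told apart.

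Fat was compared with Con to ask how the expression of TRIM genes differed when macrophages met fat-rich medium. Of the 50 TRIM genes, 40 reached 0.5 CPM in at least 2 libraries and were tested with limma on log2(CPM + 0.1), adjusted over all 12470 genes that passed this filter. At an adjusted p under 0.05, 7 TRIM genes fell in Fat and 2 rose, or 17.5% and 5.0% of those tested. Among all genes tested 5.004% fell and 3.99% rose, 1122 genes in all. The genes that fell were Trim30d, Trim30a, Trim12a, Trim21, Trim34a, Trim14 and Trim12c, and those that rose were Trim29 and Trim25. In 14 TRIM genes the Fat libraries both lay below both Con libraries and in 10 they both lay above, against 26.2% and 29.4% of all genes tested, or 55.6% either way, so that the groups were apart in about as large a share of the family as of all genes. The 9 calls were all lost without the mean-variance trend, and with TPM (values also scaled for gene length) those of Trim29, Trim14 and Trim21 were left.

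Members were divided by a list of 17 TRIM genes that are known or held to be inducible by interferon, which was drawn up with earlier results of these libraries known. Of these, 15 were listed in the data and 12 were tested. All 7 TRIM genes that fell were on this list, as was Trim25, which rose. The median log2 fold change of the 12 genes was -0.49, against 0.01 over all genes tested, and 10 of them were below 0. Of these 12 genes, 6 are Trim12, Trim30 or Trim34 copies, and among the 6 others 2 fell, 1 rose and the median was -0.14. Among the 28 tested members outside the list, 1 gene rose, Trim29, and 0 fell, and their median was 0.04. At an unadjusted p of at most 0.05, 1 of these 28 was lower with limma and with edgeR, and 0 with DESeq2. By comparison, limma had 1541 of all 12470 genes lower at this p and DESeq2 had 1168. On the list, Fat was below Con without overlap in 8 genes and above in 2. Outside it, these counts were 6 and 8 of 28. Over all genes tested, 26.2% were below and 29.4% above in this way. A narrower list of the chromosome 7 paralogs with Trim14 and Trim21 had 9 tested genes and a median of -0.55. Of these 9, 7 fell and 0 rose with limma and edgeR, and 5 fell and 0 rose with DESeq2. Of all genes tested, limma called 5.004% lower and 3.99% higher, and DESeq2 called 595 and 456 of 12470. The narrower list differs from the wider as follows. Among the tested genes it left out Trim25, Trim26 and Trim56, and it kept all 7 that fell. Since it was also drawn up with earlier results known, these counts are not independent evidence.

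**Figure D1:**
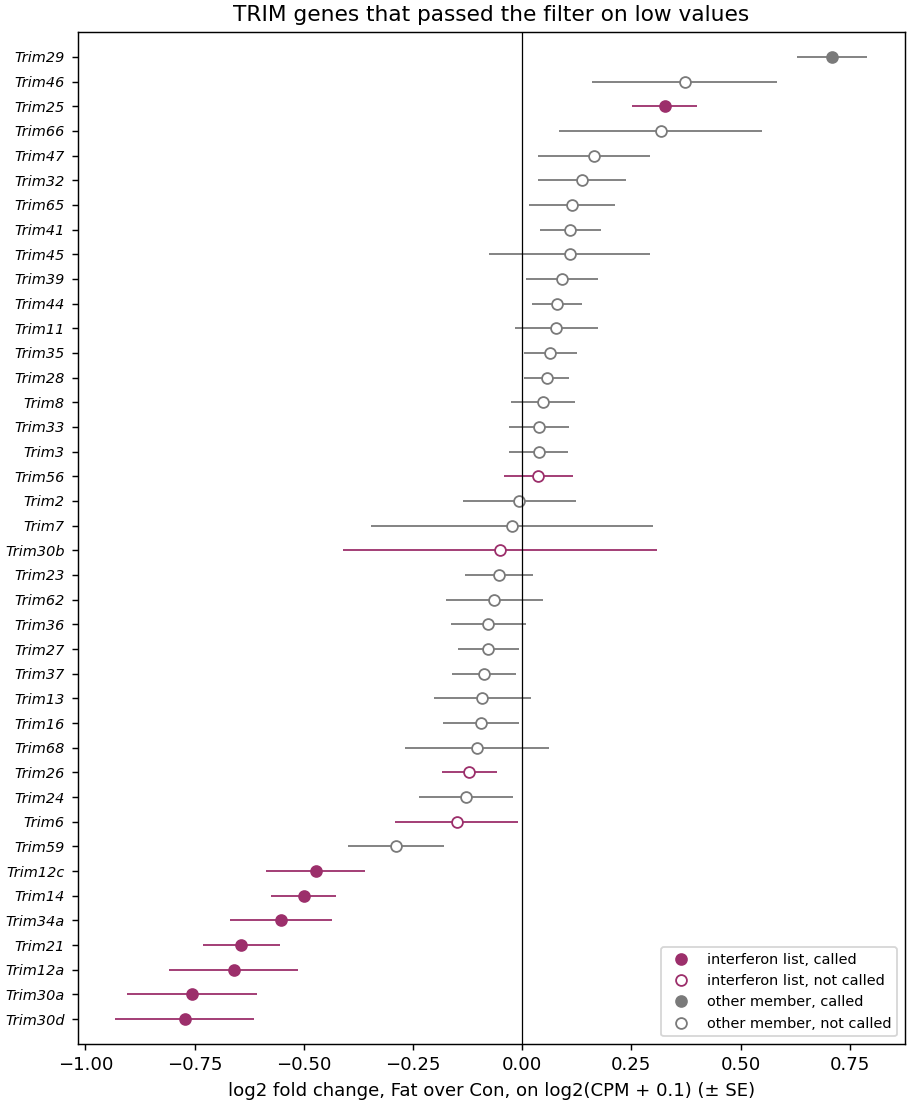
Log2 fold change of Fat over Con, with its standard error, for the 40 TRIM genes tested, in order of size. Colour marks the interferon list (12 genes) and filled points the genes called by limma. The 7 genes called lower, from -0.77 to -0.47, are all on the list, and Trim25 stands on the other side at 0.33.

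The largest falls were those of the Trim30 paralogs. Trim30a is known as an inhibitor of Toll-like receptor signalling that removes the adaptors TAB2 and TAB3. Con replicate 1 had 178.1 CPM of it and Con replicate 2 had 138.9, while Fat replicate 1 had 106.8 and Fat replicate 2 had 81.1. Values are given in this order throughout. All Fat values lay under all Con values, although the replicates of each medium were well apart. The means were 158.5 ± 27.7 CPM in Con and 93.9 ± 18.2 CPM in Fat (SD, n = 2 each), and the fitted log2 fold change was -0.76 (standard error 0.15, adjusted p = 0.0235). Trim30d had 49.8 and 39.1 CPM in Con and 30.1 and 22.1 CPM in Fat, so its libraries kept the same order as those of Trim30a. Its log2 fold change was -0.77 (standard error 0.16, adjusted p = 0.027). The transcripts of these genes shared few stretches, 4.98% of the 75-base stretches of Trim30a and 5.41% of those of Trim30d being found exactly in another gene.

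Trim30b, their neighbour, was barely expressed, with 17 and 14 reads in Con and 20 and 13 reads in Fat. The groups overlapped, and the fitted value of -0.05 on the log2 scale (standard error 0.36, adjusted p = 0.955) was too imprecise to set apart from the falls of Trim30a and Trim30d. With DESeq2 on the recovered reads, Trim30a and Trim30d were not called (adjusted p = 0.0575 and 0.0701).

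Trim12a and Trim12c, mouse relatives of the retroviral restriction factor TRIM5, fell as well. Trim12a was at 22.1 and 17.8 CPM in Con and 14.3 and 11.0 CPM in Fat, with a log2 fold change of -0.66 (standard error 0.15, adjusted p = 0.0358). Trim12c was the more abundant in CPM, at 58.5 and 47.5 in Con and 41.2 and 35.1 in Fat. The fall of Trim12c was the smallest of those called, -0.47 on the log2 scale (standard error 0.11, adjusted p = 0.0451), and was not called without the filter or with a filter of a mean of at least 5 CPM (adjusted p = 0.0574 and 0.0543). Of the 75-base stretches of Trim12c, 16.9% occur in other genes, chiefly Trim5 and Trim12a, so the reads of these paralogs may be divided imperfectly. Per gene length the pair was close, at a mean over the 4 libraries of 23.4 TPM for Trim12a and 26.7 TPM for Trim12c.

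Trim34a, another paralog of this group, was at 25.0 and 19.7 CPM in Con and 15.6 and 14.7 CPM in Fat, a log2 fold change of -0.55 (standard error 0.12, adjusted p = 0.0295). It shares 29.5% of its 75-base stretches with Trim34b. Trim34b itself had 5 and 5 reads in Con and 0 and 1 reads in Fat, under the filter on low values. Trim6, which works with the kinase IKK-epsilon in interferon signalling, differed by -0.15 on the log2 scale (adjusted p = 0.571). Its 4 values lay between 4.77 and 5.99 CPM, and the groups overlapped.

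These paralogs are neighbours. In the RefSeq annotation of GRCm38.p6, the mouse cluster on chromosome 7 runs in the order Trim6, Trim34a, Trim5, Trim12a, Trim34b, Trim12c, Trim30b, Trim30c, Trim30a and Trim30d. Of its 7 tested genes, 5 fell and 0 rose, with edgeR's quasi-likelihood test as with limma, while DESeq2 called 3 lower. Without adjustment, at p of at most 0.05, all 3 tools gave 5 lower and 0 higher. Over all genes tested, limma called 5.004% lower and 3.99% higher after adjustment, and DESeq2 595 and 456 of 12470. Without adjustment, limma had 1541 of the 12470 lower and 1467 higher. Trim5 and Trim30c are not among the genes listed in the data and so could not be analysed.

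**Figure D2:**
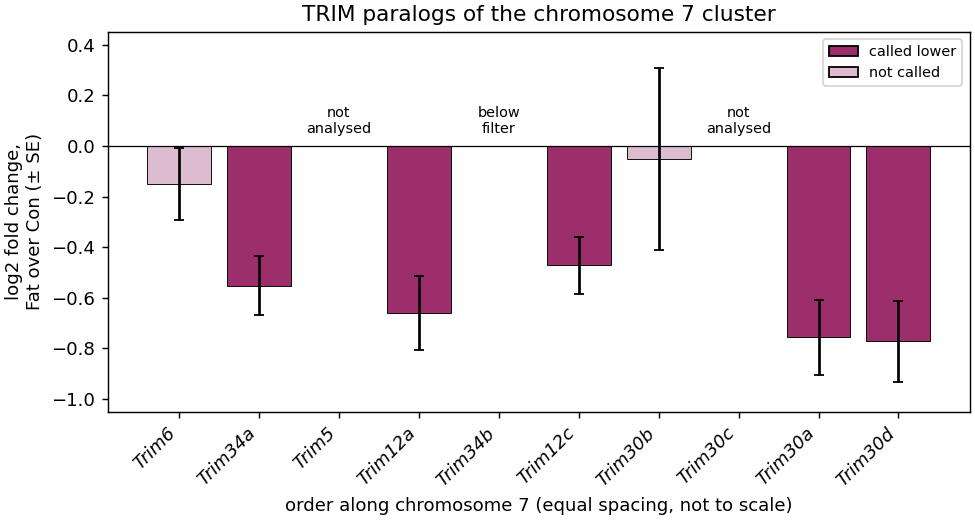
Log2 fold change of Fat over Con, with its standard error, for the TRIM genes of the chromosome 7 cluster in their order along the chromosome. The 5 dark bars, Trim34a, Trim12a, Trim12c, Trim30a and Trim30d, were called lower, while Trim6 (-0.15) and Trim30b (-0.05) were not.

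Outside the cluster, Trim21 and Trim14 fell. Trim21, a cytosolic receptor for antibody that directs antibody-coated virus to the proteasome, stood at 39.5 and 38.6 CPM in Con and at 27.1 and 23.0 CPM in Fat. The Con replicates were nearly equal and both Fat libraries were clearly lower. The log2 fold change was -0.64 (standard error 0.09, adjusted p = 0.00759), the smallest p among the TRIM genes that fell. Trim14, a RING-less member that serves as an adaptor of mitochondrial antiviral signalling, was at 74.95 and 68.93 CPM in Con and 53.7 and 48.0 CPM in Fat, a log2 fold change of -0.50 (standard error 0.08, adjusted p = 0.0102). Its exons overlap those of Nans on the opposite strand over 1356 bases, and whether the reads were counted by strand is not given in the sources used here. For Nans the log2 fold change was 0.09 (adjusted p = 0.406).

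Trim25 moved the other way. It attaches ubiquitin to the RNA sensor RIG-I and was the most abundant TRIM gene per gene length, at a mean of 120.6 TPM. Its values were 282.1 and 260.4 CPM in Con and 359.9 and 320.8 CPM in Fat, so all Fat values lay above all Con values. The log2 fold change was 0.33 (standard error 0.07, adjusted p = 0.0368). Without Con replicate 2 and without Fat replicate 1 it was 0.27 and 0.24 and was not called (adjusted p = 0.0765 and 0.125).

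The remaining tested genes of the interferon list were not called. Trim26, a ligase that acts on IRF3, was at 65.1 and 60.2 CPM in Con and 58.6 and 56.5 CPM in Fat, a log2 fold change of -0.12 (adjusted p = 0.294). Trim56, linked to antiviral sensing in the cytosol, was at 15.3 and 15.2 CPM in Con and 16.0 and 15.4 CPM in Fat, a log2 fold change of 0.04 (adjusted p = 0.818). Trim38 and Trim69 had at most 6 reads in any library.

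**Figure D3:**
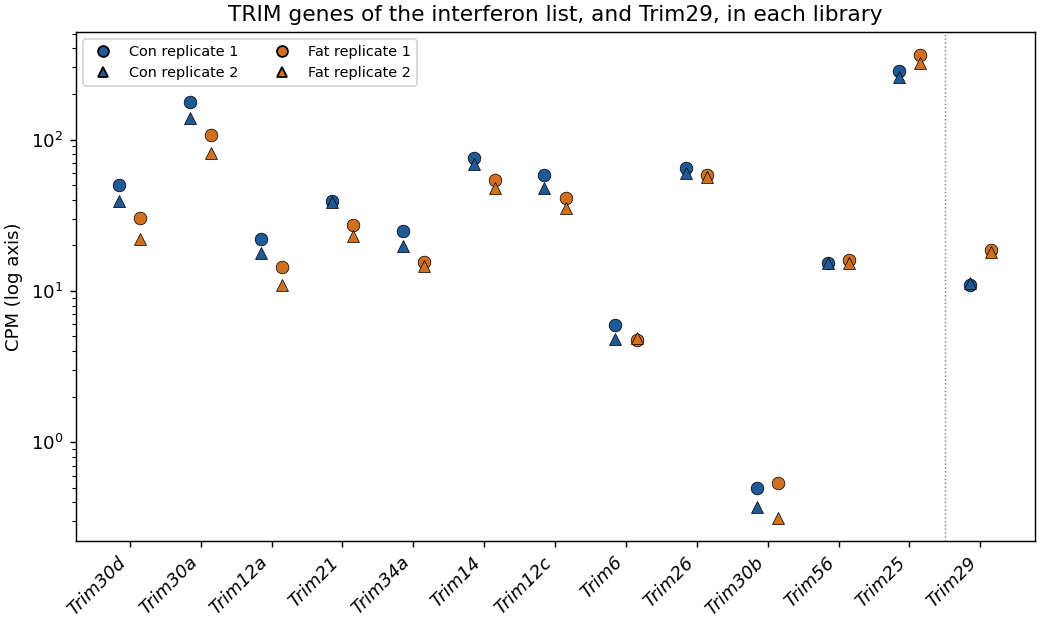
CPM on a log axis for the 12 tested genes of the interferon list, ordered from the largest fall to the rise of Trim25, and for Trim29, which is not on the list. Blue points are Con and orange points Fat, with circles for replicate 1 and triangles for replicate 2. In Trim25 and Trim29 the orange points lie above the blue, and in the 7 genes at the left they lie below.

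The replicates of a medium also differed together on this list. Con replicate 1 was above Con replicate 2 in all 12 tested genes, and Fat replicate 1 above Fat replicate 2 in 11. Outside the list these counts were 11 and 13 of 28, and over all genes tested 6300 and 6146 of 12470. Trim25 shared the order of the replicates with Trim30a but not the direction between media. Without Con replicate 1, and also without Fat replicate 2, 3 TRIM genes were called lower, Trim14, Trim21 and Trim30a, and Trim12a, Trim12c, Trim30d and Trim34a were not, with adjusted p between 0.053 and 0.155. Leaving out the libraries in turn gave list medians from -0.59 to -0.35.

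Trim25 also weighed on the summed level of the list. The 15 listed genes of the interferon list held 817.3 and 711.7 CPM in Con and 728.8 and 633.0 CPM in Fat together, and the media overlapped. The ratio of their means was 0.89. Without Trim25, the other 14 held 535.2 and 451.3 CPM in Con and 368.9 and 312.2 CPM in Fat, a ratio of the means of 0.69. Leaving out the listed gene called higher enlarges the fall of the sum, so this ratio is a description only. The 35 members outside the list held 739.7 and 751.4 CPM in Con and 764.0 and 785.6 CPM in Fat, a ratio of 1.04.

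**Figure D4:**
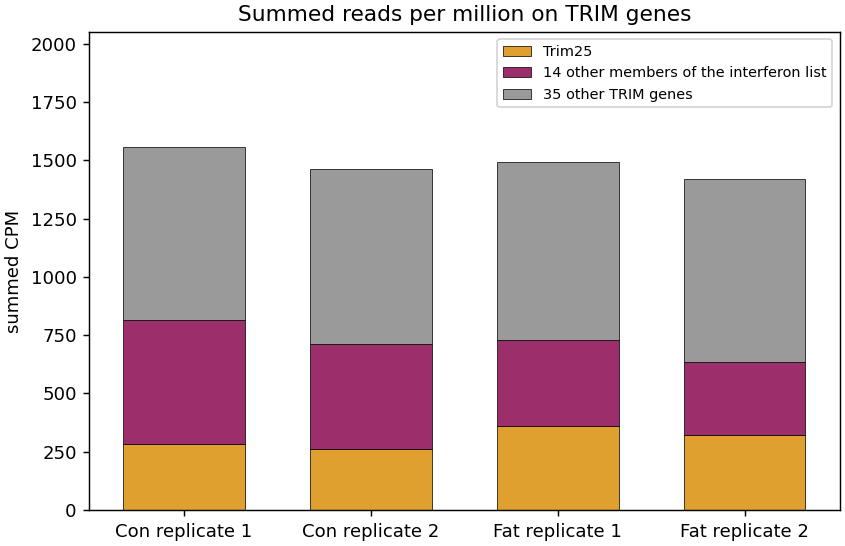
Summed CPM of the 50 TRIM genes in each library, divided into Trim25, the 14 other members of the interferon list and the 35 members outside it. The middle part shrinks from 535.2 and 451.3 CPM in Con to 368.9 and 312.2 CPM in Fat, while Trim25 grows. With Trim25 included, the sums of the list overlap between the media.

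Promoters were examined because the fallen genes are held to be interferon targets. A promoter here is the stretch from 250 bases before the annotated start site to 50 bases after it, taken from RefSeq on GRCm38.p6, whereas the labels name GRCm39 for the deposited data. Of the 50 members, 39 had a promoter in that table, and Trim14 and Trim29 were among the 11 that did not. The core of the interferon-stimulated response element, a site bound by IRF factors, was searched as GAAA, any 2 bases and GAAA on both strands, overlapping matches included. It was found for 6 of the 6 fallen genes with a promoter, and for 3.99% of the 27025 genes in the table and 3.89% of the 9348 tested ones. These 6 genes were all on the interferon list, and 5 of them are paralogs of the chromosome 7 cluster, some with nearly the same letters. They are not independent of each other, so 6 of 6 is a description only. Among the 11 tested list members with a promoter the core was found for 7, the seventh being Trim26, and for 1 of 19 tested members outside the list, Trim2. Trim25, Trim56, Trim6 and Trim30b had no match in this window. Of the 364 tested genes with the response element core, 19.0% fell and 3.85% rose, and of the 8984 without it 4.50% fell and 3.94% rose.

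The matches of genes on the interferon list are shown to let the paralogs be compared, and that of Trim2 is not shown. They are given as 30 bases on the gene's strand, 5′ to 3′, with the matched letters in capitals. Positions count from the annotated start base as 0.
Trim21, chr7:102565447-102565476, minus strand, 2 overlapping matches: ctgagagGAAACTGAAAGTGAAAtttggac
Trim34a, chr7:104244457-104244486, plus strand: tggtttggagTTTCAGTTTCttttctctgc
Trim12a, chr7:104315466-104315495, minus strand: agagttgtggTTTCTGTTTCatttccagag
Trim12c, chr7:104353359-104353388, minus strand: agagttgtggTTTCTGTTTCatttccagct
Trim30a, first start, chr7:104465210-104465239, minus strand: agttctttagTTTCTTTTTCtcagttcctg
Trim30a, second start, chr7:104446104-104446133, minus strand: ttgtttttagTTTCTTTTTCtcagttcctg
Trim30d, chr7:104507871-104507900, minus strand: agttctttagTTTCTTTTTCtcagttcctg
Trim26, chr17:36836979-36837008, plus strand, 2 overlapping matches: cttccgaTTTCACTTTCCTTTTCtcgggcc

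The matches of the fallen genes lay near the start site. Before it, the matches of Trim30d, of Trim30a at its first start and of Trim12c began at positions -41, -36 and -29. After it, that of Trim30a at its second start began at 2, those of Trim12a and Trim34a at 10 and the first of Trim21 at 13. In Trim26, which was not called, the first match began at -160. The match of Trim2, outside the list and also not called, began at 28 (log2 fold change -0.0065, adjusted p = 0.984). A match near the start site was thus not limited to fallen genes. Trim30a at its first start and Trim30d carried the same 30 letters, and the windows of Trim12a and Trim12c were alike up to their last bases. The match is a description of letters and does not show that a factor was bound.

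**Figure D5:**
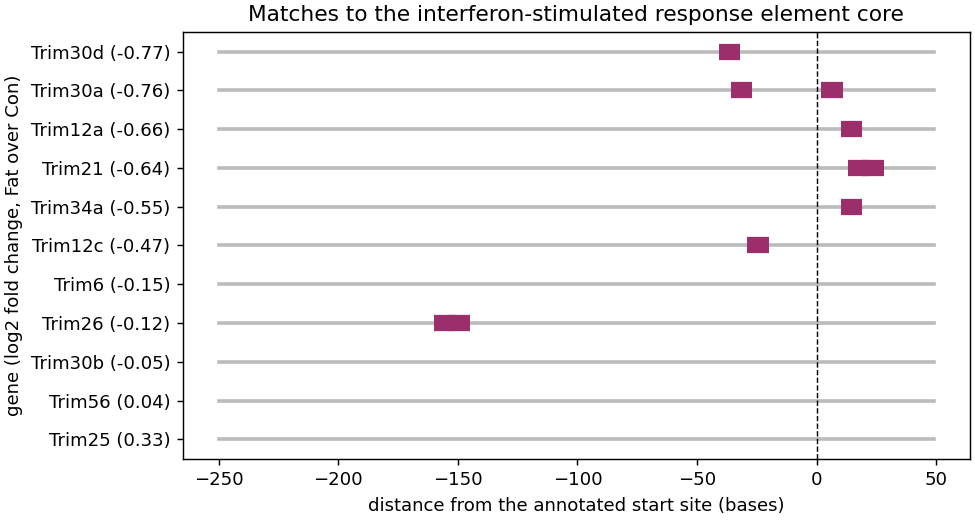
Position of the response element core (blocks) along the promoter, in bases from the start site at the dashed line, for the 11 tested genes of the interferon list that have a promoter sequence, ordered by log2 fold change. The 6 genes at the top, from -0.77 to -0.47, each have a match between -41 and 28, and Trim25 at the bottom has none.

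For contrast with these windows, the 250 bases before the start site are given for Trim12c and Trim25. Trim12c fell and has its match there, and Trim25 rose and has none. This pair does not stand for all fallen genes. Trim21, Trim12a, Trim34a and the second start of Trim30a also have no match in these bases, as theirs lie after the start site. Trim6, Trim56 and Trim30b, which were not called, lack a match as Trim25 does.
Trim12c, chr7:104353350-104353599, minus strand: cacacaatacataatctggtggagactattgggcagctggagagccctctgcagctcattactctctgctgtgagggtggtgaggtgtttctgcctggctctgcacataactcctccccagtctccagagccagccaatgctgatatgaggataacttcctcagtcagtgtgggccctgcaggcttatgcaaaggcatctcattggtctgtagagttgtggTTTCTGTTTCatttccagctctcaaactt
Trim25, chr11:88999153-88999402, plus strand: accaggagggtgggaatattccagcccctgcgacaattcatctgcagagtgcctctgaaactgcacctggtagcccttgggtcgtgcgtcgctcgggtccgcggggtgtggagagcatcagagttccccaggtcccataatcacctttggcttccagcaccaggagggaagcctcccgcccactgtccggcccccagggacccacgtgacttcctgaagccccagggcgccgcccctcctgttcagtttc

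Outside the interferon list, Trim29 was the gene that changed. This RING-less member has been described as an inhibitor of innate responses in lung macrophages. It was at 11.0 and 11.4 CPM in Con and 18.6 and 18.1 CPM in Fat, and the replicates of each medium differed by far less than the media. The means were 11.2 ± 0.253 CPM in Con and 18.3 ± 0.331 CPM in Fat (SD, n = 2 each), and the fitted log2 fold change was 0.71 (standard error 0.08, adjusted p = 0.00447), the smallest p of the family. It stayed between 0.69 and 0.73 without any 1 of the libraries and was called each time.

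The most abundant members outside the list that were not called lay close together in the media. Trim28, the corepressor of KRAB zinc finger proteins also called KAP1, was at 101.4 and 101.0 CPM in Con and 104.8 and 105.6 CPM in Fat. Its values did not overlap, but the log2 fold change was only 0.06 (standard error 0.05, adjusted p = 0.558). Trim35 (log2 fold change 0.06), Trim8 (0.05), Trim44 (0.08) and Trim41 (0.11) had adjusted p between 0.385 and 0.746, and in TPM averaged over the libraries these 5 genes ranged from 34.7 for Trim41 to 69.8 for Trim28. None of the 28 members outside the list other than Trim29 and Trim46 had a log2 fold change beyond 0.32 in size. Trim46, with 40 to 65 reads a library, had a value of 0.37 (standard error 0.21, adjusted p = 0.338), and Trim59, a membrane-anchored member, one of -0.29 (adjusted p = 0.162).

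Grouped by C-terminal domain, the PRY-SPRY class had 22 tested members, of which 7 fell and 1 rose. These are 31.8% and 4.55%, against 5.004% and 3.99% of all genes tested. All 8 of these genes were on the interferon list. The 11 tested PRY-SPRY members outside the list had 0 calls with limma, edgeR and DESeq2, 0 also at an unadjusted p of at most 0.05, and a median log2 fold change of 0.06. The 4 tested members with a PHD and bromodomain (Trim24, Trim28, Trim33 and Trim66, a class known for acting at chromatin) had a median of 0.05 and the 3 with NHL repeats (Trim2, Trim3 and Trim32) one of 0.04, with 0 called in either class by the 3 tools and 0 at an unadjusted p of at most 0.05. Trim29 was the only gene called among the 4 members without a further C-terminal domain.

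The 10 TRIM genes under the filter were Trim9, Trim10, Trim17, Trim34b, Trim38, Trim43a, Trim54, Trim58, Trim69 and Trim72. Trim9, with 15 and 2 reads in Con and 14 and 13 in Fat, had the most reads, and the others had at most 7 in any library. With no filter, limma had 9 of the 50 TRIM genes lower at an unadjusted p of at most 0.05, against 8 of 40 with it, and called 6 after adjustment. With the filter, 1541 of all 12470 genes were lower at that unadjusted p. No fold change is given for genes with so few reads.

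Among 5 tested family members under other names, 1 fell and 0 rose, against 5.004% and 3.99% of all genes tested. Without adjustment, at p of at most 0.05, 1 was higher with limma and edgeR and 0 with DESeq2, while 2 were lower with each tool. At that p, limma had 1467 of all 12470 genes higher and 1541 lower. Pml, the interferon-induced organizer of nuclear bodies also known as TRIM19, fell from 83.0 and 75.3 CPM in Con to 64.9 and 57.8 CPM in Fat (log2 fold change -0.37, standard error 0.08, adjusted p = 0.0292). The log2 fold change of Mefv, which encodes pyrin, was -0.54 (adjusted p = 0.154), and Mid1 had one of 0.51 (adjusted p = 0.132) and Mid2 one of 0.17 (adjusted p = 0.745).

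Among genes that act with TRIM proteins, lower values prevailed in interferon signalling and sensing. Of 17 tested genes of interferon signalling, 6 fell and 0 rose with limma and edgeR, against 5.004% and 3.99% of all genes with limma, and the median was -0.23. DESeq2 called 4 of them lower and 0 higher, and at an unadjusted p of at most 0.05 none was higher with any of these tools. Among those that fell were Usp18, which restrains interferon receptor signalling (-1.71, adjusted p = 0.0237), the feedback inhibitor Socs1 (-1.02, adjusted p = 0.017), and Irf1 (-0.86, adjusted p = 0.00447). The receptor genes Ifnar1, Ifnar2, Ifngr1 and Ifngr2 were not called, and Ifnb1, the gene of interferon beta, had 1 read in each Con library and 0 in Fat. Of 19 sensors and partners of TRIM25 and TRIM21, 5 (26.3%) fell and 0 rose with limma and edgeR. DESeq2 called 3 of them lower and 0 higher, against 595 and 456 of all 12470 genes. At an unadjusted p of at most 0.05 these tools had 0 higher here as well. Those called by limma were the antibody receptor Fcgr1 (-0.88, adjusted p = 0.0123), Dhx58 (-0.79, adjusted p = 0.0473), Ifih1 (-0.67, adjusted p = 0.0297), Tmem173, the gene of STING (-0.48, adjusted p = 0.0121), and Ikbke.

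Ddx58, the gene of RIG-I and the substrate of TRIM25, was at 100.1 and 73.78 CPM in Con and 65.02 and 48.08 CPM in Fat. All Fat values were under all Con values, but the difference of -0.62 on the log2 scale (standard error 0.17) missed the threshold (adjusted p = 0.0672). Mavs, which lies downstream of it, differed by -0.12 on that scale (adjusted p = 0.342), and Rnf135, another ligase of RIG-I, by -0.16 (adjusted p = 0.273). All 5 genes of the ISG15 conjugation list fell with limma and edgeR, and 4 with DESeq2, the median being -1.03. One of them is Usp18, the protease that removes ISG15, which is counted in the interferon signalling list too. Over these 3 lists, the family members under other names and the E1 and E2 enzymes, each gene counted once, 16 of 55 fell with limma and 12 with DESeq2. Of all genes tested, limma called 5.004% lower and DESeq2 595 of 12470. The data had Isg15 at 42.1 and 27.9 CPM in Con and 14.2 and 7.80 CPM in Fat (log2 fold change -1.69, adjusted p = 0.0144). Herc6, the ISG15 ligase of the mouse (-1.03, adjusted p = 0.013), Ube2l6, its E2 enzyme (-0.86, adjusted p = 0.0163), and Uba7, its E1 enzyme (-0.55, adjusted p = 0.0255), fell less than Isg15 in fitted value. These lists were also drawn up with earlier results known, so their direction is not independent evidence.

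The general ubiquitin machinery gave no such pattern. Of 10 tested genes for the E1 enzyme Uba1 and for E2 enzymes, 0 were called with limma, edgeR and DESeq2, and 1 was higher at an unadjusted p of at most 0.05. At that p, 1467 of all 12470 genes were higher with limma. Among the 59 tested genes named Rnf with a number, which hold many other RING ligases, 2 rose and 2 fell. These are 3.39% each, against 3.99% and 5.004% of all genes tested, and the median was 0.01. Those called were Rnf144a (0.92, adjusted p = 0.0358), Rnf144b (0.39, adjusted p = 0.0175), Rnf145 (-0.53, adjusted p = 0.00355) and Rnf19b (-0.34, adjusted p = 0.0153).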

How the data were processed

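RNA of 4 libraries, 2 from Con and 2 from Fat, was sequenced as single reads of 75 bases from a stranded poly(A) kit, and samples were grouped by their titles. The authors deposited CPM, which equal reads over each library's total times edgeR's TMM factor (0.990 to 1.01), and TPM, which the authors also scaled for gene length. The labels name the build GRCm39. The aligner, counter and annotation are not given in the sources used here. Genes are named by the symbols deposited. Reads were recovered as whole multiples of the CPM of 1 read, within 0.01 read for 100% of the values. These reads are not independent molecules.

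The study names edgeR for this comparison. Since the deposited values are CPM, the main test was limma 3.58.1 (R 4.3.3) with a mean-variance trend on log2(CPM + 0.1), run two-sided on genes that reached 0.5 CPM in 2 or more libraries and adjusted by Benjamini-Hochberg. All p-values without another name are limma's adjusted p. Fold changes on this scale understate those of low genes. For a single gene an exact permutation test of 2 against 2 cannot go below p = 0.333. Other settings tried were TPM, rescaling by median ratios, 1 CPM as the pseudocount, a filter at a mean of 5 CPM, none at all, a replicate block, no trend, an unadjusted p, leaving out each library, and edgeR 4.0.16 and DESeq2 1.42.0 on the recovered reads. edgeR gave 1138 calls over all genes on these reads. The tests were run on simulated counts first.

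Named are all called members, all tested members of the interferon list, the 5 most abundant other members not called, and from each further list up to 4 called genes with the largest change, any called in the other direction, and Pml, Mefv, Mid1 and Mid2. Trim2, Trim46, Trim59, the members under the filter, Nans, Ddx58, Mavs, Rnf135, Ikbke, Uba7, the receptors and Ifnb1 were added after their values were seen. Members and lists were chosen with earlier results of these data known. Sharing of sequence was counted as exact 75-base matches between transcripts of different genes in GENCODE vM21. One gene that the rule would name, and a motif search tied to it, are not reported here.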

Additional observations from a re-analysis of the deposited data

How the results depend on the processing

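The directions of the 9 called TRIM genes held under every alternative and with each library left out. Of all genes, 1122 were called, and 1138 with edgeR and 1051 with DESeq2. TRIM genes called higher and lower numbered 2 and 7 with limma and edgeR and 2 and 5 with DESeq2. With TPM they were 1 and 2, Trim29 and Trim14 with Trim21, the median of all genes being 0.04 against 0.01, and the median of members outside the interferon list was 0.075. Without the mean-variance trend 0 and 0 were called by limma (3 and 8 at an unadjusted p of at most 0.05), against 31 of all genes. With each library left out in turn, the counts were 1 to 2 and 3 to 7, and those of all genes 529 to 1131, lowest without Fat replicate 2 (529) and Con replicate 1 (666). The median of members outside the list then lay between 0.0093 and 0.053. At an unadjusted p of at most 0.05, 3008 of all genes were called. Without the Trim12, Trim30 and Trim34 copies, the median of the interferon list was -0.14. Over the pathway genes, 0 were higher and 16 lower. With TPM 7 were lower and without the trend 0 (limma), and 8 to 20 with each library left out (8 without Con replicate 1, 9 without Fat replicate 2), when 0 to 0 were higher. At an unadjusted p, 2 were higher and 22 lower. With the replicate block, 2520 of all genes, 2 and 7 TRIM genes and 1 higher and 23 lower pathway genes were called. The replicates share only a number, and the differences between the replicates of Con and Fat correlated at 0.20 over all tested genes and at 0.34 over the 9760 with a mean of at least 5 CPM. Depth limits the 10 genes under the filter.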
